A study of Mus musculus with 12 samples.

Results

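Pdx1 encodes a homeodomain transcription factor of the pancreas and duodenum. It is required for the pancreas to form and, in adult islets, is most abundant in β cells, where it activates the insulin gene and other genes of glucose sensing. Its transcription is controlled from a promoter without a TATA box and from conserved enhancer areas upstream of the gene, named areas I to IV, which bind FOXA, PAX6, MAF and HNF factors and PDX1 itself. Methylation of CpG dinucleotides over promoters and enhancers generally goes with low activity, and stretches that stay unmethylated in a cell type are called hypomethylated regions (HMRs).

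The data described here cover 1 gene, Pdx1 (ENSMUSG00000029644.8), of 21,757 protein-coding genes. The members were taken by position alone: the GENCODE gene body with 20 kb on each side, a window of 45,890 bp at chr5:147186769-147232658 of mm39. The window held 676 CpGs of 21,730,423 and 7 HMRs of 87,689, after the HMRs of all pools were merged. The gene lies on the plus strand at chr5:147206769-147212658 and has 2 exons. The long noncoding RNA gene Plut runs antisense to it and starts inside it, 1,562 bp downstream of the Pdx1 start. Downstream lie Gm27033, Mir7k, Gm35112 and Gm72010, all noncoding. The other genes of the ParaHox cluster, Gsx1 and Cdx2, lie outside the window.

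Sorted islet β cells were studied by T-WGBS, bisulfite sequencing of the whole genome from tagmented DNA, in 12 libraries. All mice carried Myt1cCre and Ngn3nCre, the parts of a split Cre driven by Myt1 and Neurog3, with the Rosa26eYFP reporter and InsApple, which marks insulin-expressing cells. The eYFP+ cells descend from progenitors that expressed both Myt1 and Neurog3 and the eYFP- cells from progenitors in which Cre did not act, and no group lacked the alleles. Each subtype had 2 libraries at postnatal day 2 (P2) and 4 at postnatal day 60 (P60), and each library combined cells sorted in several batches of mice of 1 sex. The labels write eGFP for the reporter and give the cell type as all islet cells, and the sort on Apple comes from the protocol. Incomplete recombination would leave cells of the marked lineage among the eYFP- cells.

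Read counts were available as 1 pool for each subtype and stage. A level is the percent of reads that were methylated at the CpGs of a region, and it averages over the sorted cells, so that a change in every cell cannot be told apart from a change in the share of some cells. The pools had no replicate error: their intervals (95% Wilson, or Newcombe for differences) and Fisher's exact tests cover counting error only. Replicate spread came from the positions of HMRs in the 12 libraries. A region was called where the Benjamini-Hochberg adjusted p, over all regions of that kind in the genome, was under 0.05 and the difference was at least 10 percentage points (pp). The pools held a median of 25 reads per CpG at P2 and 44 at P60, and in the window a mean of 26.0 to 26.6 and of 57.8 to 58.1. The labels name no batch. The run prefixes of the library names fall into 3 sets, of which 1 holds all P2 libraries and the other 2 hold P60 replicates 1 and 2 and P60 replicates 3 and 4, so stage and run prefix cannot be told apart. Of 254 X-chromosome HMRs found in every P60 library labelled male and in no P60 library labelled female, 92.5% were in the library labelled P2 eYFP- replicate 1, female, and 13.4% in the library labelled P2 eYFP- replicate 2, male. Both of these go against their sex labels, whereas the P2 eYFP+ libraries, with 13.0% and 84.3%, did not. Around the annotated start (1 kb) of the β cell genes Ins1, Iapp and Mafa, the level at P60 was at most 7.87%, while that of Ins2 was at least 69.0%, over 5 CpGs. At P2, Ins1 had 28.3% and 35.1% and Ins2 72.5% and 78.6% in eYFP- and eYFP+ cells. Iapp and Mafa had at most 4.85% at P2. Over both ages, the starts of the other islet and non-islet genes reported here lay between 38.5% (Prss1, with 1 CpG) and 87.3%, except that of Hhex, at most 1.94%.

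The gene itself was almost free of methylation at both ages in both subtypes. It lay inside a single HMR of 13,362 bp (HMR 4, here called the valley), from 3.8 kb upstream to 9.56 kb downstream of its start, with 290 CpGs. The level of the valley was 2.78% in P2 eYFP- cells, 3.12% in P2 eYFP+ cells, 2.98% in P60 eYFP- cells and 3.08% in P60 eYFP+ cells. The stage difference was 0.203 pp in eYFP- cells (-0.261 to 0.641) and -0.0315 pp in eYFP+ cells (-0.518 to 0.427), with adjusted p of 0.508 and 0.957. Few HMRs were of this size: 95 of the merged HMRs, or 0.108%, were as long, and the median length was 536 bp.

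Each functional piece of the gene showed the same low level. The promoter, taken as 0.5 kb on each side of the start, had 39 CpGs and levels of 0.753%, 0.502%, 0.559% and 0.729% in P2 eYFP-, P2 eYFP+, P60 eYFP- and P60 eYFP+ cells. Exon 1 lay between 0.357% and 0.646% and the intron between 0.697% and 0.826%. Exon 2, which encodes the homeodomain, reached the highest level of the gene, 1.5% (1.12 to 2.00) in P60 eYFP+ cells against 0.755% (0.504 to 1.13) in P60 eYFP- cells. It was picked out as the highest of these values, and its difference between the subtypes was not tested. Areas I to III, here the stretch from 2.9 to 1.5 kb upstream, had 23 CpGs with levels between 0.663% and 1.17%. The stretches used for areas I to IV are textbook positions, widened, so their ends are not the ends of the enhancers. The 250 bases upstream of the start, at chr5:147206519-147206768, are shown because the promoter held so few methylated reads. Their 5 CpGs, in capitals as in every sequence here, had levels of 1.00%, 0%, 0.395% and 0.308% in the same order.
Pdx1 promoter: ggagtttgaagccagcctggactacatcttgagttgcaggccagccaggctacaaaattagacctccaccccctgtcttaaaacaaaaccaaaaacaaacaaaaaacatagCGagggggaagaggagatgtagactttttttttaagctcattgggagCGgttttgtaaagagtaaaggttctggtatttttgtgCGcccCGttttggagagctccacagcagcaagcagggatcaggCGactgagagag

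**Figure D1:**
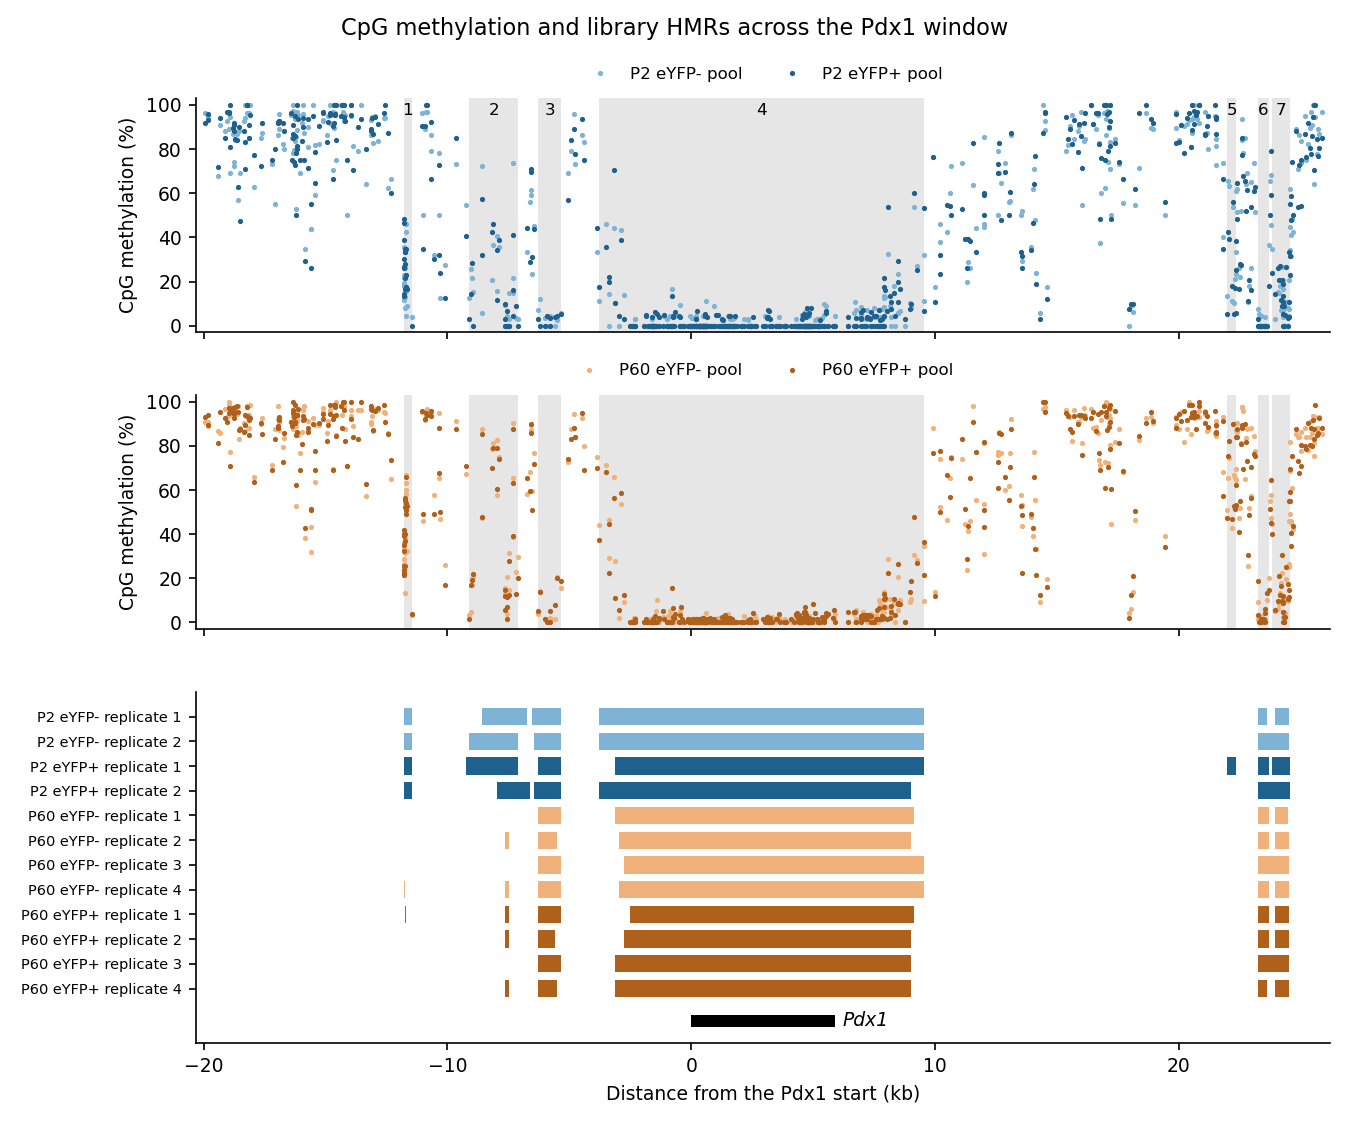
Methylation along the Pdx1 window. The upper panels show the level of each CpG (percent) in the pools at P2 and at P60 against the distance from the Pdx1 start in kb, with the 7 merged HMRs shaded and numbered, and the lower panel shows the HMRs of each of the 12 libraries as bars above the gene. The valley (HMR 4) and HMR 3 are found in every library, whereas the broad HMR 2 and most of HMR 1 are seen in the P2 libraries.

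The question of the comparison of stages was whether the methylome of each subtype changes from the newborn to the adult. At Pdx1, 3 of the 7 HMRs had higher levels at P60 in eYFP- cells, and the same 3 (HMR 1, HMR 2 and HMR 5) had higher levels in eYFP+ cells. None was called lower. Across the genome, 27.4% of HMRs were called higher and 3.16% lower in eYFP- cells, and 26.1% higher and 4.09% lower in eYFP+ cells, so with 7 HMRs the count at Pdx1 is not a result that sets the gene apart. The bounds of all 3 were set by P2 pools: HMR 1 and HMR 5 were HMRs in P2 pools only, and 8.68% of HMR 2 was an HMR in the P60 pools. Part of their rise thus follows from how they were defined, their p-values are too small for that reason, and tiles of fixed size were tested as well.

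HMR 2, from 9.10 to 7.09 kb upstream, at chr5:147197668-147199682 like HMR 1 and HMR 3 within the span of Plut, had 24 CpGs. Its level was 19.6% (16.8 to 22.8) in P2 eYFP- cells and 40.8% (38.3 to 43.4) in P60 eYFP- cells, and 16.5% (14.0 to 19.5) in P2 eYFP+ cells and 35.6% (33.2 to 38.2) in P60 eYFP+ cells. The rise was 21.2 pp (17.2 to 25.1, adjusted p = 4.95e-21) in eYFP- cells and 19.1 pp (15.2 to 22.7, adjusted p = 3.57e-19) in eYFP+ cells, in Fisher's exact test. The pools of both subtypes had an HMR over all 2,015 bp at P2, and of this 175 bp was left at P60, at the same position in both. In the libraries, an HMR was found there in 4 of 4 P2 libraries, covering between 42.8% and 100% of HMR 2. At P60 it was found in 5 of 8 libraries, covering at most 9.33%, and was missing from eYFP- replicates 1 and 3 and eYFP+ replicate 3. The P2 and P60 libraries did not overlap in this measure. The bounds of HMR 2 were those of the P2 pools, so part of this gap also follows from how it was defined.

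The rise was not spread evenly over HMR 2. The first stretch printed here, at chr5:147198599-147198898, is the 300 bases that held the most CpGs called between stages, and was chosen by that count. Its 5 CpGs together had 29.2% and 33.5% in P2 eYFP- and eYFP+ cells and 74.4% and 72.2% at P60. The CpG at -7948 bp from the gene start, for example, had 15.6% and 11.4% at P2 and 57.6% and 60.6% at P60. In the stretch that stayed an HMR, at chr5:147199111-147199286, 7 CpGs had 3.68% and 2.73% at P2 and 12.3% and 9.09% at P60. Of the 5 motifs searched, this second stretch held 1 match to the FOXA motif TGTTTAC and 1 to the GATA motif AGATAA, and the first held none.
HMR 2, changed stretch: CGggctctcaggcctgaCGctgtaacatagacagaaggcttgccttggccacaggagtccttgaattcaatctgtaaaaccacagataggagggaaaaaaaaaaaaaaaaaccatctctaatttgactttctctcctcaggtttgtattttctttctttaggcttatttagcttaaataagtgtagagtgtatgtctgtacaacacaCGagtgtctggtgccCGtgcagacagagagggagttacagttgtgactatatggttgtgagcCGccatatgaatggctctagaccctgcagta
HMR 2, stretch kept at P60: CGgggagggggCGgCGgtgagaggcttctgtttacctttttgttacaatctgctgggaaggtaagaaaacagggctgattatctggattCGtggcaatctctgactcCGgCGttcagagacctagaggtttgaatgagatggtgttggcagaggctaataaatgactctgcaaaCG

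HMR 1, from 11.80 to 11.45 kb upstream at chr5:147194970-147195315, had 21 CpGs in 346 bp, the densest of the 7 at 60.7 CpGs per kb. Its level rose from 19.9% (16.7 to 23.4) to 34.5% (31.7 to 37.4) in eYFP- cells and from 26.3% (22.8 to 30.1) to 39.9% (36.9 to 43.1) in eYFP+ cells. These rises were 14.7 pp (10.1 to 18.95, Fisher's exact test, adjusted p = 5.08e-09) and 13.7 pp (8.79 to 18.4, adjusted p = 4.11e-07). All 4 P2 libraries had an HMR over at least 99.1% of it, and at P60 2 of 8 libraries had a piece, of 46 bp in eYFP- replicate 4 and 58 bp in eYFP+ replicate 1. The bounds of HMR 1 were those of the P2 pools as well. HMR 1 is a stretch of low complexity, where reads can be hard to place, and the part of mapping in its change was not tested.

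HMR 3, from 6.27 to 5.34 kb upstream at chr5:147200497-147201424, overlaps the position of area IV, here the stretch from 6.7 to 5.9 kb upstream. It was an HMR in all 12 libraries. Its 9 CpGs had 3.95% (2.16 to 7.12) and 7.31% (5.37 to 9.87) in eYFP- cells at P2 and P60, a difference of 3.36 pp (-0.359 to 6.48) with an adjusted p of 0.139. In eYFP+ cells they had 2.50% (1.15 to 5.35) and 8.47% (6.33 to 11.2), and the difference of 5.97 pp (2.41 to 9.06, Fisher's exact test, adjusted p = 0.00379) was under the 10 pp needed for a call. The side of the area IV stretch away from the gene had higher levels. The 5 CpGs of the stretch before HMR 3, at chr5:147200168-147200324, had 48.4% and 49.1% in P2 eYFP- and eYFP+ cells and 74.7% and 70.7% at P60, while the 3 CpGs of the first 300 bases of HMR 3 had at most 7.78% in any pool. The sequences of both are shown since area IV is an enhancer and the boundary of methylation crossed the widened stretch used for it. Whether the boundary crossed the enhancer itself was not tested. The stretch in HMR 3 held 1 homeobox motif (TAATTA) and 2 GATA motifs, and the stretch before it none of the 5 motifs.
Area IV, before HMR 3: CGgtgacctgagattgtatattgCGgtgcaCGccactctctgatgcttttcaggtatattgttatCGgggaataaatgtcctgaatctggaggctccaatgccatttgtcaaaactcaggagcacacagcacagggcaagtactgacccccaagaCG
HMR 3, first 300 bases: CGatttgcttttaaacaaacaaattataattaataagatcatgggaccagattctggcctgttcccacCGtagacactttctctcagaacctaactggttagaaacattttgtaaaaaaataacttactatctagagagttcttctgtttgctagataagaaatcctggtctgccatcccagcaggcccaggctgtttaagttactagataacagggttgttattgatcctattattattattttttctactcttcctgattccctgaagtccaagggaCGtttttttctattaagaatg

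Downstream, HMR 5, HMR 6 and HMR 7 lay 22.00 to 24.55 kb from the Pdx1 start at the noncoding gene Gm35112, and HMR 7 also reached Gm72010. HMR 5, at chr5:147228772-147229116, changed most of the 7. Its level was 32.6% (27.4 to 38.3) at P2 and 65.7% (61.4 to 69.7) at P60 in eYFP- cells, and 25% (20.4 to 30.3) and 62.7% (58.7 to 66.6) in eYFP+ cells. The differences were 33.0 pp (25.9 to 39.7, Fisher's exact test, adjusted p = 1.43e-17) and 37.7 pp (31.1 to 43.8, adjusted p = 2.41e-24). It was an HMR in the pool of P2 eYFP+ cells and, among the 12 libraries, in P2 eYFP+ replicate 1 alone. HMR 6 stayed between 2.08% and 5.39% and HMR 7 between 13.0% and 16.8% in the 4 pools, and both were HMRs in all 12 libraries. The stage differences of HMR 6 were -1.84 pp (-4.96 to 0.538) and 2.26 pp (-0.181 to 4.15), and those of HMR 7 were 2.86 pp (-0.483 to 5.99) and 3.46 pp (-0.174 to 6.78). None of these differences was called.
HMR 5, first 300 bases: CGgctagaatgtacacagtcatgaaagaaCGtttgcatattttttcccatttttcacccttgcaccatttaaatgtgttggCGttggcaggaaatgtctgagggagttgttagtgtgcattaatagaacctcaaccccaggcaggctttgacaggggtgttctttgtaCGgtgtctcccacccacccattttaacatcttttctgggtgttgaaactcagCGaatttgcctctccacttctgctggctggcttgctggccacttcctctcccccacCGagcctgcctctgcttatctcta

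**Figure D2:**
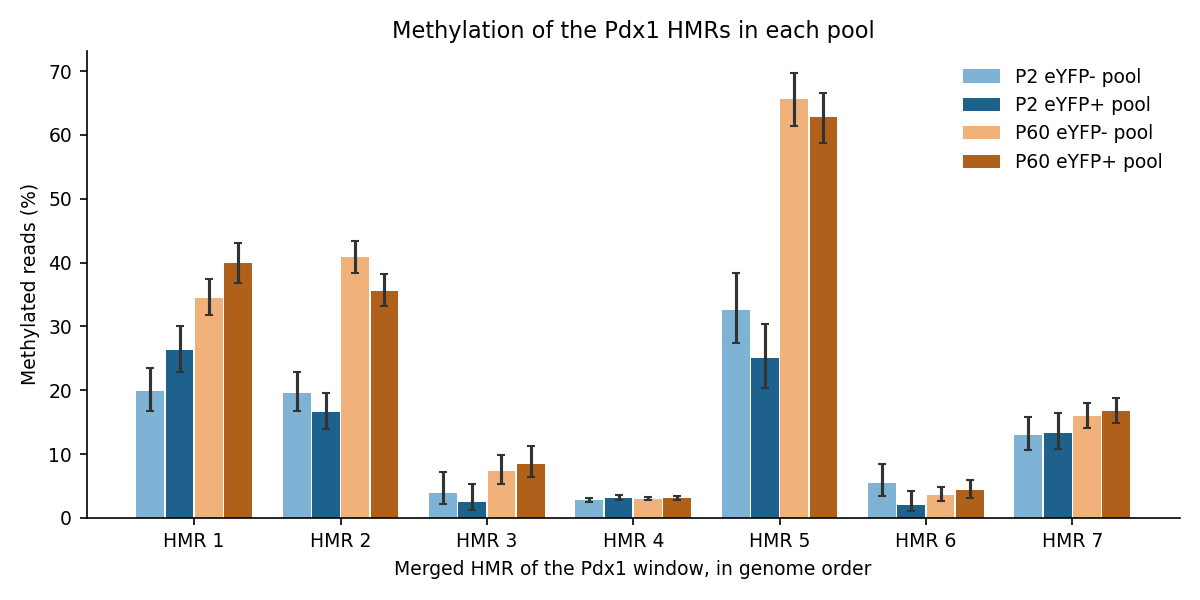
Methylation of the 7 merged HMRs in the 4 pools. Bars give the percent of methylated reads and error bars the 95% Wilson interval, which covers counting error only. HMR 1, HMR 2 and HMR 5 are higher in both P60 pools than in both P2 pools, and HMR 4, the valley with the gene, is near 3% in all.

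Tiles of 1 kb, which do not use the HMR calls, rose upstream and downstream of the gene. Of 45 tiles, 9 were called higher at P60 in eYFP- cells and 10 in eYFP+ cells, against 5.03% and 4.39% of all tiles in the genome, and none was called lower. The median difference was 3.48 pp and 2.13 pp in the window, and -1.01 pp and -2.50 pp over all tiles. HMRs covered a mean of 33.4% of this window over the 12 libraries. The median over protein-coding autosomal genes with their flanks was 3.59%. All tiles are thus a background with less HMR content, and tiles of like content were not compared. In both subtypes, 7 tiles were called, of which 5 lay between 11.8 and 5.8 kb upstream and 2 between 21.2 and 23.2 kb downstream. The largest rise was in the tile from 8.8 to 7.8 kb upstream, from 33.3% to 72.8% in eYFP- cells and from 37.1% to 71.0% in eYFP+ cells. The 2 tiles at the left edge of the valley were called in eYFP- cells, with rises of 22.2 and 22.1 pp, and differed by 7.20 and 7.55 pp in eYFP+ cells. The 3 tiles at and beyond its right edge were called in eYFP+ cells, with rises between 12.3 and 17.1 pp, and differed by 11.8, 5.01 and 6.02 pp in eYFP- cells. The difference of the stage changes between the subtypes was tested on the log odds (a Wald test) and was called in 0 of 45 tiles, with a lowest adjusted p of 0.462, against 0.0322% of all tiles. In the tiles over the gene body the stage differences lay between -1.05 and 0.908 pp.

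**Figure D3:**
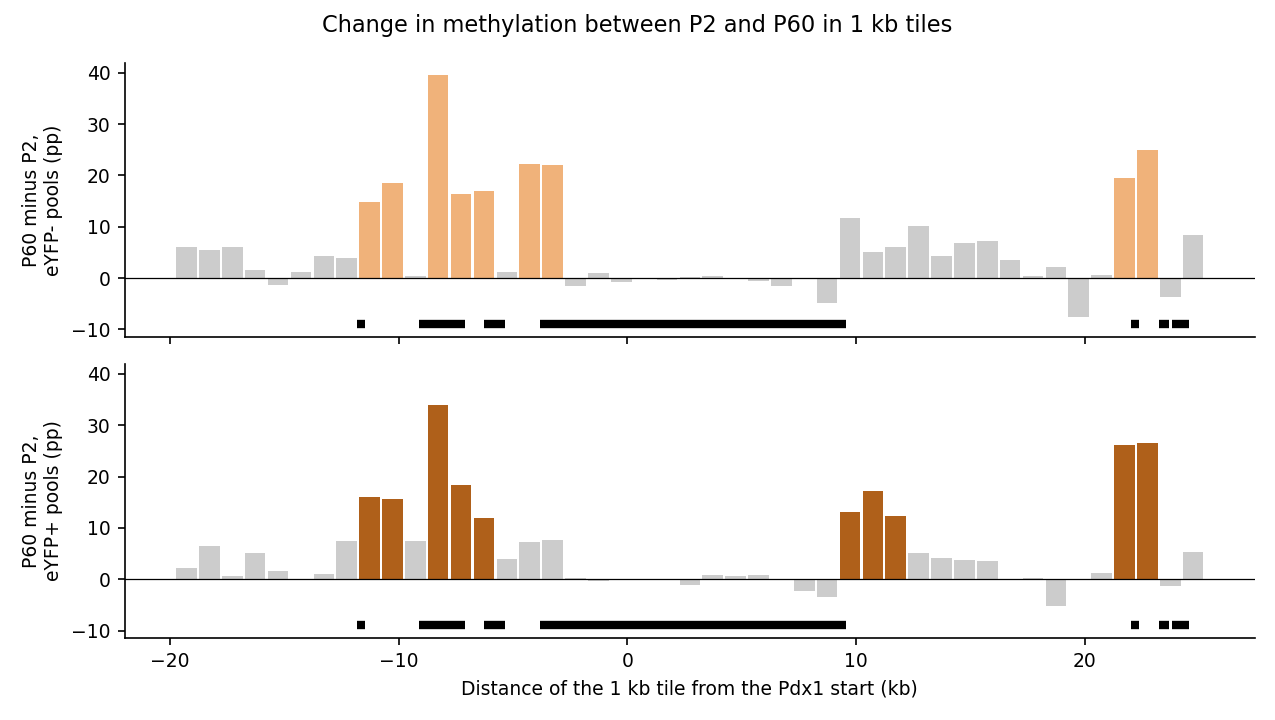
Difference in methylation between P60 and P2 (percentage points) in 1 kb tiles across the Pdx1 window, for eYFP- pools above and eYFP+ pools below, against the distance from the Pdx1 start in kb. Coloured bars are called tiles and black lines the merged HMRs, and the called tiles lie upstream, at the edges of the valley and downstream of it, while those over the gene stay near 0.

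Among single CpGs, 14 of 676 were called higher at P60 in eYFP- cells and 13 of 675 in eYFP+ cells, against 0.658% and 0.619% of CpGs in the genome. None was called lower, 5 were called in both subtypes and 22 in at least 1. As with the tiles, a background of like HMR content was not compared. HMR 2 held 7 of the 22, HMR 5 another 7 and HMR 1 held 1, while 7 lay outside the HMRs. The bounds of these 3 HMRs were set by P2 pools, so part of their calls follows from how they were defined. The valley, with 290 CpGs, held none. Over the whole window the level was 35.4% and 35.1% in P2 eYFP- and eYFP+ cells and 39.4% and 39.3% at P60. Outside the HMRs it was 75.2% and 74.6% at P2 and 80.2% and 79.6% at P60.

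The comparison of subtypes asked whether cells of different progenitor origin differ in methylation. None of the 7 HMRs was called at P2, where 1.38% of all HMRs were, nor at P60, where 0.824% were. None of the 45 tiles was called (0.0347% and 0.0422% of all tiles), and no CpG (1.04e-05% and 5.05e-06% of all CpGs). By Fisher's exact test without adjustment, 11 CpGs had p under 0.05 at P2 and 15 at P60, or 1.63% and 2.22% of those tested, against 2.72% and 3.42% in the genome. The depth and the call rule limit what these zeros say. In data simulated over all HMRs with the depth of the P2 pools, 18% of those that differed by 10 pp were called. Of those that differed by 20 pp, 88% were called. With the depth of the P60 pools the shares were 34% and 96%. A call needs an observed difference of 10 pp, so a true difference of that size is often missed at any depth. For the valley, the interval of the difference was narrow, from -0.202 to 0.878 pp at P2 and from -0.266 to 0.470 pp at P60. The HMRs with the widest gaps were HMR 5 at P2, where eYFP+ minus eYFP- cells gave -7.62 pp (-15.0 to -0.163), and HMR 1, with 6.41 pp at P2 (1.40 to 11.4, Fisher's exact test, adjusted p = 0.191) and 5.42 pp at P60 (1.21 to 9.62, adjusted p = 0.189). HMR 5 was an HMR in the P2 eYFP+ pool alone, so a low level there was a condition of its choice, and its difference is a description. At HMR 2 the difference at P60, eYFP+ minus eYFP- cells, was -5.22 pp (-8.80 to -1.63, Fisher's exact test, adjusted p = 0.113). The stage change differed between the subtypes at none of the 7 HMRs, with a lowest adjusted p of 0.275 at HMR 6, against 0.667% of all HMRs called in this test.

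The libraries gave the replicate error that the pools lack. HMRs covered 38.5% and 39.5% of the window in P2 eYFP- replicates 1 and 2, and 38.5% and 36.9% in P2 eYFP+ replicates 1 and 2. In P60 eYFP- replicates 1 to 4 they covered 30.9%, 30.4%, 31.7% and 32.1%, and in P60 eYFP+ replicates 1 to 4 30.1%, 29.7%, 31.3% and 30.6%. Every P60 library was below every P2 library. The mean fell from 38.4% ± 1.08 (SD, n = 4) to 30.9% ± 0.801 (SD, n = 8), and the exact permutation test, two-sided, gave p = 0.00202, the smallest it allows. This test takes the 12 libraries as independent. Same-numbered P60 libraries of the subtypes deviated together genome-wide, as did some with other numbers and the same sex label. With the subtypes averaged within each stage and replicate number, 4 values against 2, the exact permutation p was 0.0667, and with the number as a block in replicates 1 and 2 it was 0.0556, each the smallest possible. Without the P2 eYFP- libraries, whose sex labels are in doubt, the difference was -6.84 pp (exact permutation p = 0.0222). All HMRs of a library shrank as well, from 56.7 ± 1.41 Mb to 44.7 ± 1.17 Mb (SD, n = 4 and 8, exact permutation p = 0.00202). The loss at Pdx1 was 19.6% of its covered bases and that of the whole library 21.1%. When the bases of the window were divided by the HMR Mb of each library, the value was 6.08 bases per Mb higher at P60 (exact permutation p = 0.461), so that a fall beyond that of the whole library was not seen. By run prefix, P60 replicates 1 and 2 differed from the P2 libraries by -8.07 pp and replicates 3 and 4 by -6.93 pp (exact permutation p = 0.0286 each, the smallest possible).

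The valley was shorter in the P60 libraries. Its left edge lay 3,798 bp upstream in 3 P2 libraries and 3,129 bp upstream in P2 eYFP+ replicate 1. At P60 it lay 3,129, 2,976, 2,747 and 2,976 bp upstream in eYFP- replicates 1 to 4, and 2,498, 2,747, 3,129 and 3,129 bp upstream in eYFP+ replicates 1 to 4. The groups met at 3,129 bp. The mean moved by 714 bp towards the gene (exact permutation p = 0.00808), and without the P2 eYFP- libraries by 547 bp (exact permutation p = 0.0889). The valley was 13,062 ± 353 bp long at P2 (SD, n = 4) and 12,106 ± 295 bp at P60 (SD, n = 8, exact permutation p = 0.00202). With the subtypes averaged in the same way, both edge and length gave an exact permutation p of 0.0667, the smallest possible. Both were chosen for testing after their values were seen. By subtype its mean length was 13,364 bp in eYFP- and 12,760 bp in eYFP+ cells at P2, and 12,281 and 11,931 bp at P60. In 3 P60 libraries, with edges at 2,498 or 2,747 bp, the valley began inside the widened stretch used for areas I to III. Whether it began inside an enhancer was not tested. The gene lay inside the valley in all 12 libraries.

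**Figure D4:**
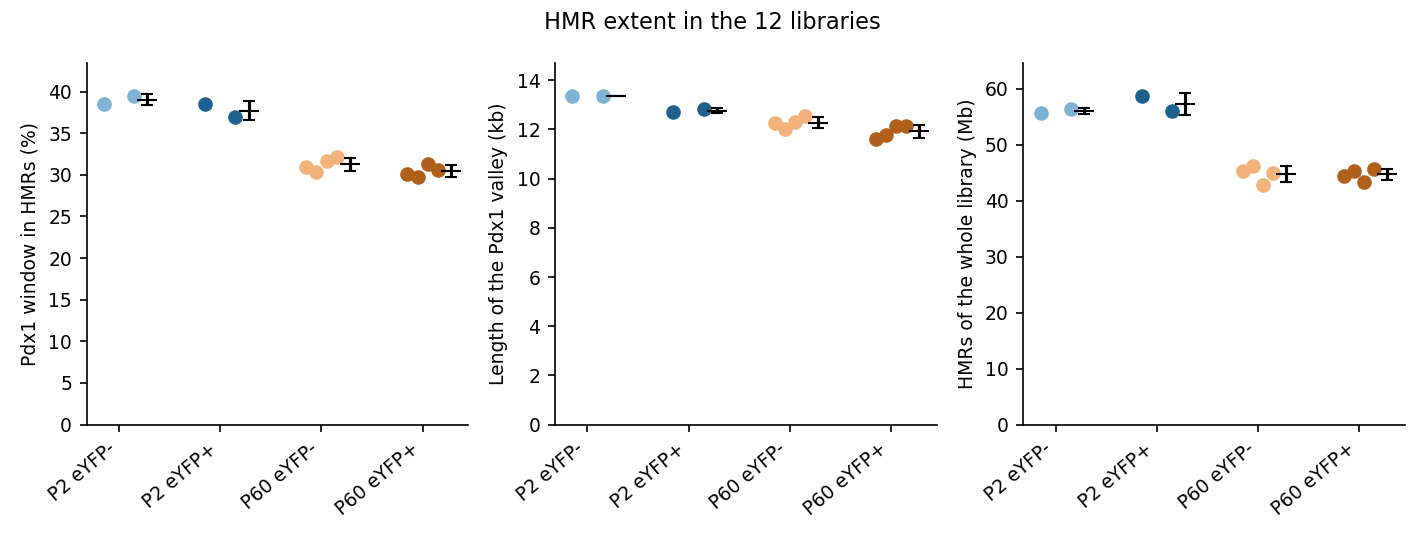
HMR extent in the 12 libraries: percent of the Pdx1 window in HMRs, length of the valley in kb, and total HMR length of the library in Mb. Points are libraries, and the line and bars beside them the mean and SD of the group (n = 2 at P2, n = 4 at P60). In each panel the P60 libraries lie below all P2 libraries.

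Between subtypes, the covered share at P60 was 31.3% ± 0.765 in eYFP- cells and 30.4% ± 0.688 in eYFP+ cells (SD, n = 4 each), and eYFP+ minus eYFP- cells gave -0.813 pp (exact permutation p = 0.171). At P2 it was 39.0% ± 0.670 and 37.7% ± 1.14 (SD, n = 2 each), where the exact permutation test cannot go below p = 0.333. In each of the 6 same-numbered pairs, the eYFP+ library had the lower coverage and the shorter valley, and for coverage the exact permutation test within P60 pairs gave p = 0.125, the smallest possible. The P2 pairs share a number only: they did not deviate together genome-wide, and their eYFP- libraries go against their sex labels. In P2 replicate 1 the coverage was nearly equal, 38.54% in eYFP- and 38.50% in eYFP+ cells. The stage changes differed by 0.501 pp between the subtypes (exact permutation p = 0.767).

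Few genes had as much of their surroundings unmethylated. Pdx1 ranked 129 of 20,621 protein-coding autosomal genes by the mean percent of the gene with 20 kb on each side in HMRs, with 33.4% against a median of 3.59%. Over the 12 libraries, the genes with the most similar percent were Cbarp, Midn, Nkx6-1, H4c2 and H2ac4, which differed from Pdx1 by a mean of 0.793, 1.162, 1.23, 1.29 and 1.47 pp. Cbarp and Midn are neighbours on chromosome 10 and H4c2 and H2ac4, which encode histones, on chromosome 13, so that their windows overlap. Nkx6-1, a homeodomain factor of β cells, fell from a mean of 39.2% in the P2 libraries to 29.9% in the P60 libraries, and Pdx1 from 38.4% to 30.9%.

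Other islet transcription factors were read the same way. In the windows of 24 of them, 72 of 193 HMRs (37.3%) were called higher and 1 lower at P60 in eYFP- cells, and 68 (35.2%) higher and 3 lower in eYFP+ cells, against 27.4% and 26.1% higher over all HMRs. Without Glis3, a choice made after the values were seen, the share was 44 of 145 (30.3%) in each subtype, near that over all HMRs. For the 193 HMRs, those of Glis3 included, the median difference was 6.14 pp and 5.50 pp, against 2.84 pp and 2.29 pp over all HMRs. The median without Glis3 was not computed, so how much of this gap rests on that gene was not tested. Glis3, a zinc finger factor of β cells, held the most calls, with 28 and 24 of 48 HMRs higher, and Hnf4a had 6 and 6 of 12 higher. No HMR of Nkx6-1, Foxa1 or Ptf1a was called between stages. Of 10 genes known as targets of PDX1, with 72 HMRs, 11 HMRs were higher and 11 lower in eYFP- cells, and 11 higher and 14 lower in eYFP+ cells, with medians of 0.196 and -0.626 pp. These are 15.3% higher and 15.3% lower in eYFP- cells and 15.3% higher and 19.4% lower in eYFP+ cells, where all HMRs gave 27.4% and 3.16%, and 26.1% and 4.09%. Mafa and Nkx6-1 are in both lists. Of the PDX1 targets, Glp1r, the receptor of an incretin, had 4 and 5 of 12 HMRs lower, and Iapp, which encodes amylin, had 2 and 2 of 5 lower. Beside Pdx1, the ParaHox genes Cdx2 and Gsx1 had 4 and 5 of 11 and 1 and 1 of 2 HMRs higher. The Cdx2 window shares HMRs with that of Pdx1. Between subtypes, 3 of the 193 HMRs of the transcription factors (1.55%, against 1.38% of all HMRs) were called at P2 and none at P60.

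Motifs of factors of the pancreas were counted in the HMRs. In the central 300 bases of the 7 HMRs, the FOXA motif TGTTTAC was found in 0, the homeobox motif TAATTA in 1, the E-box CAGCTG in 1, the MAF motif TGCTGA in 3 and the GATA motif AGATAA in 1, on either strand. Of 67,582 merged HMRs of at least 300 bp, 7.39%, 10.6%, 20.8%, 24.4% and 16.3% held them. The 250 bases of the promoter held none of the 5, which 3.17%, 4.84%, 13.0%, 16.1% and 9.99% of 32,851 RefSeq promoters held. In its whole length the valley held 2 FOXA motifs, 8 E-boxes, 10 MAF motifs and 6 GATA motifs. A match is a description of letters and not a bound site.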

How the data were processed

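T-WGBS was done on sorted islet β cells, and the authors deposited, for each stage, 1 table of methylated and unmethylated read counts per CpG pooled by subtype, and HMR positions for each pool and library. Per the labels and methods, reads were trimmed with Trim Galore 0.6.6 and cutadapt 1.16, checked with FastQC and processed with SAMtools 1.5 on mm39, and HMRs were called with MethPipe, whose version is not given in the sources used here. The deposited lists of differentially methylated regions and the probability column of the count tables hold the authors' own comparisons and were not used.

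HMRs of the 4 pools were merged, and read counts were summed over merged HMRs, 1 kb tiles and CpGs. Pools were compared with Fisher's exact test (two-sided) with Benjamini-Hochberg adjustment over the genome, and the difference of stage changes with a Wald test on log odds with 0.5 added to each count, chosen after the data were seen. The steps were tested on simulated data. Python 3.11.15, NumPy 2.4.6, SciPy 1.17.1, pandas 2.3.3 and numba 0.67.0 were used. Libraries were compared with exact permutation tests of HMR coverage. Whether replicates of a group came from separate mice is stated by batch only, so their p-values measure the spread between these libraries. Same-numbered P60 libraries of the subtypes deviated together over 84,472 autosomal HMRs (correlations 0.153, 0.194, 0.288 and 0.136), whereas the P2 libraries did not (0.00884). The pairing comes from these data. P60 pairs with other numbers and the same sex label had 0.176, 0.102, -0.00352 and 0.210, for eYFP+ replicates 1 to 4. Pairs of unlike sex label lay between -0.242 and -0.0579. Deviations were taken from the mean of each group, so positive values in some pairs force negative values in others. At P2, with 2 libraries per group, pairs with other numbers had -0.00884 for that reason. Averaging or blocking by number does not take out what libraries of other numbers share. Sequence is from mm39 and RefSeq promoters are of GRCm38.p6. The named genes were the 5 with the lowest mean absolute difference in coverage from Pdx1 and the 3 of each list with the most calls, of which some items are not reported here. The gene, the lists and the tests were chosen with earlier results of these data known.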

Additional observations from a re-analysis of the deposited data

Results flagged for a closer look

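In the groups of 4 P60 libraries, 17 sets of values were examined for a library standing apart by Dixon's criterion. Chance passes about 1 in 20 sets of continuous values, but many of these values are tied or lie at 0% or 100%, so that any 1 library that differs from 3 tied ones passes, and the number of sets that passed cannot be set against chance. At HMR 1, P60 eYFP- replicate 4 stood apart with an HMR over 13.3% of it, and P60 eYFP+ replicate 1 with 16.8%, while the other 3 libraries of each group had none. At HMR 2, P60 eYFP+ replicate 3 had 0% against 8.68% or 9.33% in the others. At HMR 3, P60 eYFP- replicate 2 had 81.5% against 100%. At HMR 6, P60 eYFP+ replicate 4 had 81.9% against 100%. At HMR 7, P60 eYFP+ replicate 3 had 97.5% against 78.2%, and its HMR there also spanned HMR 6. The right edge of the valley lay 9,133 bp from the gene start in P60 eYFP+ replicate 1 and 9,028 bp in the other 3 libraries of the group. What set these libraries apart was not tested.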

How the results depend on the processing

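Of 150 values recomputed under other settings, 135 kept their direction and their side of the threshold or size. The 135 include 28 of 28 stage and subtype differences of single HMRs. For these the only other setting was a minimum of 10 reads per CpG in every pool. It took no CpG out of the 7 HMRs, so their differences could not move. With 10 kb on each side, 1 HMR was called in eYFP- and 1 in eYFP+ cells, since the window then holds fewer HMRs, and the window levels were 12.4%, 12.5%, 15.6% and 15.1% in P2 eYFP-, P2 eYFP+, P60 eYFP- and P60 eYFP+ cells. With a minimum difference of 20 pp, 1 HMR was called in eYFP+ cells, and 4 tiles in eYFP- and 3 in eYFP+ cells. Divided by the HMR Mb of each library, the stage difference in coverage of the window turned from a fall to 6.08 bases per Mb (exact permutation p = 0.461). With the replicate number as a block, in replicates 1 and 2, it was -8.07 pp (exact permutation p = 0.0556, the smallest possible). Averaging the subtypes within each stage and replicate number, added after the data were seen, left -7.50 pp with an exact permutation p of 0.0667, the smallest possible, and the same p for the length and left edge of the valley. For the subtypes the replicate block gave p = 0.125 at P60 and 0.5 at P2 in exact permutation tests, the smallest these designs allow, so the block could not have made or ended a call there. Leaving out each library in turn gave -7.99 to -7.12 pp for this difference, -1.11 to -0.534 pp between subtypes at P60, -2.12 to -0.507 pp at P2, -1079 to -855 bp for the length of the valley and 655 to 882 bp for its left edge. With P2 eYFP+ libraries alone at P2, chosen after the data were seen, the left edge moved by 547 bp (exact permutation p = 0.0889). Depth limits the single CpGs most, and pooled counts allow no replicate error on any level.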

Other observations

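The count tables name the pools by letter and number, and the reading of them as eYFP- and eYFP+ cells was compared with the library HMRs. Of 5,931 HMRs found in the P2 eYFP- pool alone, a mean of 25.6% were found in an eYFP- library and 5.28% in an eYFP+ library. Of 6,733 found in the P2 eYFP+ pool alone, 32.1% were found in an eYFP+ library and 6.35% in an eYFP- library. At P60 the values were 14.9% and 6.07% for 4,670 HMRs of the eYFP- pool, and 16.4% and 7.06% for 4,036 of the eYFP+ pool.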
